A study of Schizosaccharomyces pombe with 36 samples.

Results

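The right end of chromosome II of Schizosaccharomyces pombe was described here from its last 60 kb of complete bins, chr2:4479601-4539600 on assembly ASM294v3. The region consists of 200 bins of 300 bp, chosen by position alone, out of 41905 complete bins of the 3 chromosomes. All 200 were covered by each of 36 libraries, and 41072 bins in all were covered by every library. For description and testing the bins were joined into 20 windows of 3 kb, numbered here by distance from the outer edge of the last complete bin.

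The study used polymerase usage sequencing (Pu-seq), in which DNA is cleaved with alkali at ribonucleotides left by a mutant replicative polymerase, and the cleaved ends are mapped by strand. Each condition had 4 libraries, 2 from strains with a mutant DNA polymerase delta (the cdc6 gene, listed as cdc6-L591G or cdc6-I591G) and 2 from strains with a mutant DNA polymerase epsilon (cdc20-M630F). Growth was at 25 °C or at 34 °C for wild type, for rif1 deletion, for stn1-226, and for stn1-226 with a rif1 deletion. For the taz1 deletion libraries the labels give no temperature.

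All strains lacked normal removal of ribonucleotides through RNase H2. The strains labelled wild type were h- and carried rnh201-RED:kan with ade6-704, leu1-32 and ura4-D18. The taz1 deletion strains carried taz1::NAT in that h- background, and the rif1 deletion strains carried rif1::BSD with rnh201::kan, ade6-704, leu1-32 and ura4-D18. The temperature-sensitive stn1-226 strains, and those with an added rif1 deletion, carried an rnh201 deletion marked hphNT1, polymerase alleles between lox sites, leu1-32 and ura4-, and were not listed with ade6-704. A comparison of stn1-226 or rif1 deletion with wild type was therefore also one of rnh201 alleles, and for stn1-226 of further markers. Each condition and polymerase is 1 strain per the labels, so the 2 libraries may be technical replicates, and the p-values measure only the spread between these libraries.

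Fission yeast telomeres are bound by Taz1, which recruits other shelterin proteins, and the Stn1-Ten1 complex promotes completion of lagging-strand synthesis at chromosome ends. Rif1 restrains the firing of many replication origins, those near telomeres included. Subtelomeres of chromosomes I and II share long stretches of nearly identical sequence that carry genes for RecQ-type helicases.

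Several facts of the files bear on every value below. The libraries held 2211932 to 25777570 ends in all, 39 to 575 ends in the genome's median bin, and 17549 to 441323 ends in the region. The smallest window of a library held 337 to 4286 ends, so that counting error was small beside the spread between libraries. At rif1, on chromosome I from 2766273 to 2770704, the level in rif1 deletion was 0.0176 ± 0.0163 (SD, n = 4) times the median bin at the lower temperature and 0.0119 ± 0.00760 at the higher. Libraries labelled stn1-226 rif1 deletion stood at 1.10 ± 0.122 at 25 °C and 1.09 ± 0.0839 at 34 °C, so the counts at rif1 go against that label, and they are called the libraries labelled stn1-226 rif1 deletion throughout. The taz1 gene held 0 ends in all 4 taz1 deletion libraries. At ura4, which the labels give as ura4-D18 in wild type, wild type at 25 °C held at most 0.00245 times the median bin in replicate 1 but 0.295 and 1.27 in replicate 2. Wild type at 34 °C held 0.0349 and 0.103 in replicate 2, against at most 0.00104 in replicate 1. For rif1 deletion at 34 °C the values were 0.0115 and 0.0263 in replicate 2 and 0 in replicate 1. Results that rest on the 2 libraries of wild type at 25 °C replicate 2 are also given without them. The libraries at 34 °C were left out only 1 at a time.

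The sequence itself falls into 3 zones. The inner 12 kb, 48 to 60 kb from the end, is almost free of exact copies of 50 bases elsewhere in the assembly and holds gal1 (galactokinase), gal7 (galactose-1-phosphate uridylyltransferase), gal10 (UDP-glucose 4-epimerase), tgd1 and part of pan5. From position 4492133 outward to about 4532546 the sequence recurs near other chromosome ends. The aligned stretches were 97.0 to 100% identical to the left end of chromosome I within its first 40631 bp, to the right end of chromosome I from 5559366 onward and to the left end of chromosome II within its first 20843 bp, and a stretch of 2077 aligned bases on chromosome III was 87.8% identical. Of the 10 bins between 3 and 6 kb from the end 8 had no copy, while 47.5% of the 50-mers of the outermost 3 kb had one. In all, 53 of the 200 bins had no exact copy of any 50-mer. In the shared sequence, ends cannot be assigned to this chromosome end alone. This holds for level and polarity in every condition.

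The edge of the shared sequence is shown because the level in taz1 deletion changed at or near it. It is read 5′ to 3′ from the plus strand of ASM294v3 at chr2:4492073-4492192, and the capitals mark the bases from which every 50-mer has a further exact copy in the assembly.
edge of the shared sequence: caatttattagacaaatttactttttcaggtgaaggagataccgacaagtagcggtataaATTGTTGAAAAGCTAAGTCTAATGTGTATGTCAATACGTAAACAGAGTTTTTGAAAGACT

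The 3 strongest strand switches of wild type in the region are shown in the same way, each with 150 bases on either side of the bin boundary. A switch here is a rise, moving outward, of the share of ends made by forks that travel toward the chromosome end, which is the pattern left by an origin. The strongest is shown by rule and the others were chosen after their values were seen. They lie at chr2:4490851-4491150, chr2:4521451-4521750 and chr2:4526251-4526550, and capitals mark runs of 5 or more A or of 5 or more T.
switch 48.6 kb from the end: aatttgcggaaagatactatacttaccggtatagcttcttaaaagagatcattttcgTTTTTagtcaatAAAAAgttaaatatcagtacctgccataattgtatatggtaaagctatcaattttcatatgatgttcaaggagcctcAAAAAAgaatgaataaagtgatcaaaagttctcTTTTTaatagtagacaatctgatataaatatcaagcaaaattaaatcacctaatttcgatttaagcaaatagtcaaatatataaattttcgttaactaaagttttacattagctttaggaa
switch 18 kb from the end: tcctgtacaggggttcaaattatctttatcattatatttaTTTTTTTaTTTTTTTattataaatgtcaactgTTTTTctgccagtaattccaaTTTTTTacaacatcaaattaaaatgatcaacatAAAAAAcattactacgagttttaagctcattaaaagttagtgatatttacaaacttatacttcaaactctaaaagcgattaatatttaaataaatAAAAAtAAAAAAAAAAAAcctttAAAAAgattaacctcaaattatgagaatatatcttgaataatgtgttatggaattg
switch 13.2 kb from the end: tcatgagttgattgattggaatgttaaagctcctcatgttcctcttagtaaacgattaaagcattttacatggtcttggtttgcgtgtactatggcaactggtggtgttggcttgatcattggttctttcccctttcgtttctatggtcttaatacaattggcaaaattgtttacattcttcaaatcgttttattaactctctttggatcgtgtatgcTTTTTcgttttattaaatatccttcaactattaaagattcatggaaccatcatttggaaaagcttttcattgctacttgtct

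The stretch at 18 kb had 53 of its 300 bases in such runs, more than 99.5% of all 41905 bins of the genome. The stretch at 48.6 kb had 21 (more than 77.1% of bins) and the stretch at 13.2 kb had 5 (more than 14.1%). A run of this kind, AAAAA or longer on either strand, was present in 85.9% of all bins, so its presence alone does not set these stretches apart. The telomere-like hexamer GGTTAC, searched on both strands, had 19 matches in the region, in 11 of 20 windows, against 54.0% of all 3 kb windows of the genome. No 100 bases held more than 1 match, so no telomeric repeat array lies inside the region as assembled.

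The region carries 16 annotated protein-coding genes, 4 pseudogenes and 36 long non-coding RNAs. The sugar enzymes gal1, gal7 and gal10 lie in the inner zone. The single annotated transporter, SPBPB2B2.16C of the major facilitator family, lies in the shared zone, 40.2 kb from the end. The single helicase gene, tlh2, spans 4526885 to 4532899 and is a RecQ-type helicase gene whose annotated product is named Tlh1. The others include genes of uncharacterized and of transmembrane proteins, and the metabolic enzymes pan5 and tgd1.

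In wild type the level rose toward the end. The level is the number of ends on both strands over the library's genome median bin, so a value of 1 is that of a typical bin. The outermost window had a level of 7.97 ± 2.56 (SD, n = 4) at 25 °C and 10.8 ± 3.95 at 34 °C, which was the highest mean of the 20 windows at both temperatures. The 4 libraries at 25 °C read 4.24, 8.47, 9.24 and 9.94, and those at 34 °C read 11.5, 7.87, 16.1 and 7.69, in the order Pol delta replicates 1 and 2, then Pol epsilon replicates 1 and 2. All 8 lay far above a typical bin, and they spread widely among themselves. The lowest window was the innermost, 57 to 60 kb from the end, at 0.749 ± 0.153 and 0.754 ± 0.101.

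**Figure D1:**
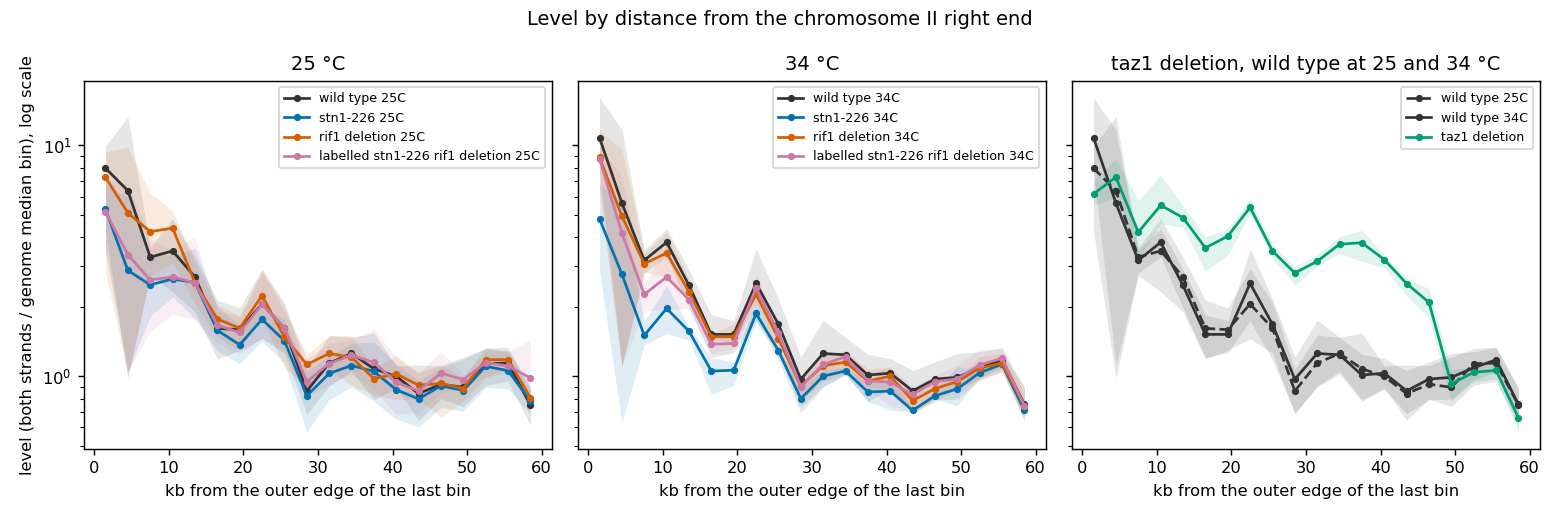
Level (ends on both strands over the genome median bin, log axis) in 20 windows of 3 kb against distance in kb from the outer edge of the last complete bin; lines are means of 4 libraries and bands run from the lowest to the highest library. In wild type the level falls from 7.97 (25 °C) and 10.8 (34 °C) in the outermost window to about the median bin by 27 kb, and in taz1 deletion the mean is 2.09 or more as far in as 48 kb and 1.06 or less beyond.

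Between these extremes the wild type profile was not smooth. At 34 °C the means were 3.18 at 6 to 9 kb, 3.80 at 9 to 12 kb over tlh2, and 1.52 at 15 to 18 kb. They then rose to 2.52 at 21 to 24 kb and fell to 0.970 at 27 to 30 kb. The same rise stood at 25 °C, from 1.59 at 18 to 21 kb to 2.05 at 21 to 24 kb. Blocks of 60 kb were compared where every library covered them, which gave 204. In wild type the region had the highest level of these at both temperatures (2.08 and 2.22, against at most 1.63 and 1.66 in any other). The stretches of the other ends of chromosomes I and II that share its sequence lie in none of these blocks. The region was not ranked against them. The block also ranked highest in rif1 deletion at both temperatures and in taz1 deletion. It ranked number 2 in stn1-226 at 25 °C and in both conditions labelled stn1-226 rif1 deletion, and number 3 in stn1-226 at 34 °C.

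Levels at 3 to 6 kb from the end differed with the reference sequence behind the files. In 16 replicate 1 libraries chromosome II runs 19 bins beyond the assembly, and the 7 bins from 4533601 to 4535700 had library means of 0.0259 to 0.618 times the median bin. In the other 20 libraries the same bins had means of 3.23 to 14.4. The window at 3 to 6 kb read 1.11 and 1.54 in wild type at 34 °C replicate 1 but 8.14 and 11.7 in replicate 2. In these 16 libraries the longer reference goes with replicate 1, so the reference and the replicate cannot be told apart within the conditions other than taz1 deletion. The taz1 deletion replicate 1 libraries do not have the longer reference. In taz1 deletion this window read 5.92 and 8.75 in replicate 1 and 7.27 and 7.21 in replicate 2. Within-reference differences are given where a result rests on the outer zone.

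In stn1-226 at 34 °C, the higher of the growth temperatures used for this temperature-sensitive allele, the level of the region was lower than in wild type. The 4 stn1-226 libraries read 1.34, 1.63, 1.20 and 1.38 times the median bin over the whole region. The 4 wild type libraries at 34 °C read 1.98, 1.94, 2.53 and 2.44. The groups did not overlap. The change was -0.68 on the log2 scale (SE 0.11; a fold of 0.625), with an adjusted p of 0.000538 in edgeR's quasi-likelihood test over 204 blocks, of which 0.980% were called.

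The lower level was seen in the outer 48 kb, and by window the groups separated only within 21 kb of the end. From 21 to 48 kb the window changes on the log2 scale were -0.64 to -0.31 in replicate 1 and -0.20 to -0.06 in replicate 2. In the outer 9 kb stn1-226 at 34 °C read 2.85, 4.70, 1.79 and 2.76, against 5.23, 6.27, 6.98 and 7.64 in wild type, without overlap. From 9 to 48 kb it read 1.13, 1.14, 1.14 and 1.17, against 1.56, 1.27, 1.96 and 1.63. In the inner 12 kb it read 0.882, 0.941, 0.931 and 0.998, against 0.908, 0.862, 1.05 and 1.19, and there the groups overlapped. Without the outermost 3 windows the change of the block was -0.41 (adjusted p 0.000238), and in the innermost 4 windows alone it was -0.09 (adjusted p 1).

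Over tlh2 the level was 1.67 ± 0.288 (SD, n = 4) in stn1-226 at 34 °C and 3.40 ± 0.428 in wild type. Over gal1 it was 0.970 ± 0.168 and 1.06 ± 0.236. Taken singly, 0 of the 20 windows passed in edgeR's test, in which 0.195% of 4105 windows were called. An unadjusted p under 0.05 stood in 14 of the 20, all lower, and in 36 of the 4105, 27 of them lower. The nearest to the threshold were the windows at 6 to 9 kb (-1.09, SE 0.24, adjusted p 0.0586) and at 9 to 12 kb (-0.98, SE 0.22, adjusted p 0.0856). DESeq2 called 6 windows of the region, with no genome share counted. The difference within each reference was -0.82 in replicate 1 and -0.54 in replicate 2 for the whole region. The change had an adjusted p of 0.991 from the Pol delta libraries alone (-0.41).

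**Figure D2:**
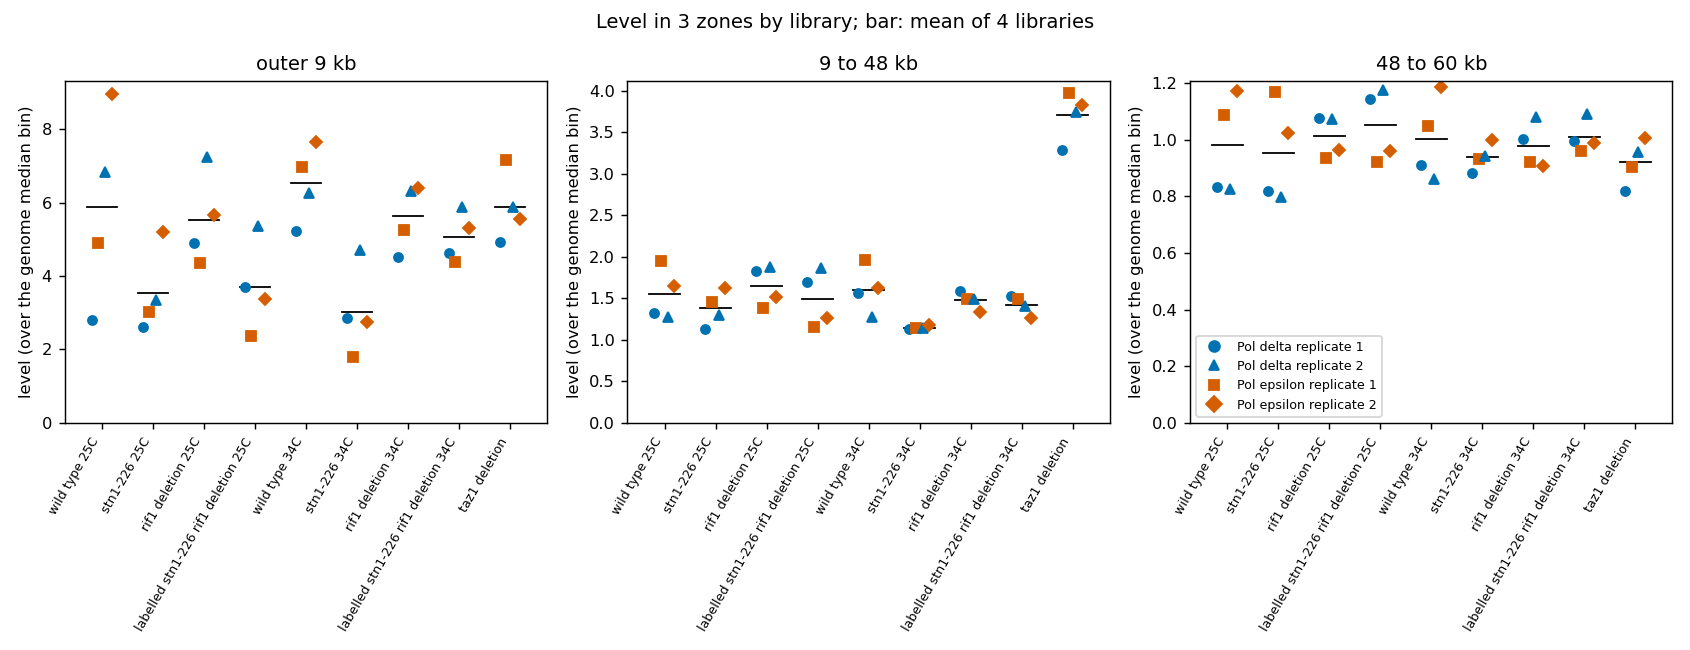
Level (over the genome median bin) of each library in the outer 9 kb, from 9 to 48 kb and from 48 to 60 kb, by condition; points are libraries, coloured by polymerase, and bars are means of 4. In the outer 9 kb stn1-226 at 34 °C sits between 1.79 and 4.70 and wild type at 34 °C between 5.23 and 7.64, and from 9 to 48 kb taz1 deletion sits between 3.28 and 3.97, above all other libraries.

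At 25 °C the call for stn1-226 depended on the fit, and it did not pass in the one used throughout. The stn1-226 libraries read 1.29, 1.504, 1.63 and 2.04 over the region and the wild type libraries 1.45, 2.02, 2.22 and 2.65, which overlapped. The change was -0.36 (SE 0.11, adjusted p 0.331 in edgeR's test, in which 0 of 204 blocks were called and 6 had an unadjusted p under 0.05). It passed with the replicate number as a block (-0.35, adjusted p 0.0250) and without wild type Pol delta replicate 1 (-0.49, adjusted p 0.0124), and it was -0.11 without both replicate 2 libraries of wild type at 25 °C. In edgeR, 0 of the 20 windows passed, against 0.195% of all windows called. An unadjusted p under 0.05 stood in 1 of the 20 and in 45 of all 4105. DESeq2 also called 0. In the fit with the replicate number as a block, same-numbered libraries of stn1-226 and wild type at 25 °C differ in how their ends depend on base content. Their deviations correlated at -0.748 (Pol delta) and -0.757 (Pol epsilon), so that block did not match like with like. Between libraries alike in that dependence the change was -0.67 in 1 class and -0.03 in the other.

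The stn1-226 change at 34 °C was tested against that at 25 °C. For the block the difference was -0.31 (SE 0.16, 95% interval -0.64 to 0.01 before adjustment), with an adjusted p of 0.998 in edgeR. In edgeR no window passed in the region or in the genome (0%), and in DESeq2 none passed in the region. An unadjusted p under 0.05 stood in 2 of the 20 windows and in 16 of all 4105. The polarity of stn1-226 did not pass at either temperature: the block changed by 0.02 at 34 °C and by 0.14 at 25 °C, with adjusted p values of 0.996 and 0.932 in edgeR. In polarity edgeR called 0 windows of the region at 34 °C (0.0244% of all windows) and 0 at 25 °C (0%), and DESeq2 called 0. An unadjusted p under 0.05 stood in 0 and 1 of the 20, and in 32 and 177 of all 4105.

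No change of level in rif1 deletion passed the test. In rif1 deletion the libraries read 2.13, 2.52, 1.74 and 2.02 at 25 °C and 1.91, 2.14, 1.94 and 2.01 at 34 °C. Both sets overlapped those of wild type. Without both replicate 2 libraries of wild type at 25 °C the change at that temperature was 0.30 (adjusted p 0.327), and from the Pol epsilon libraries alone it was -0.36 (adjusted p 0.0561). In the full fit the changes were 0.04 (95% interval -0.19 to 0.27) and -0.14 (-0.37 to 0.09), with adjusted p values of 0.991 and 1 in edgeR. In windows, edgeR called 0 of the region at either temperature (0.0731% and 0.0487% of all windows). An unadjusted p under 0.05 stood in 1 and 0 of them, and in 569 and 56 of all 4105. DESeq2 called 0 at both.

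Against stn1-226, whose background they share, the libraries labelled stn1-226 rif1 deletion gave the following. At 34 °C they read 1.88, 2.02, 1.82 and 1.82, above the 1.34, 1.63, 1.20 and 1.38 of stn1-226, without overlap. The change of 0.43 (SE 0.11, 95% interval 0.20 to 0.66) had an adjusted p of 0.139 in edgeR, of 0.0250 in DESeq2 and of 0.00157 with the replicate number as a block. At 25 °C they read 1.89, 2.25, 1.29 and 1.52 against 1.29, 1.504, 1.63 and 2.04, and the change was 0.10 (SE 0.11, adjusted p 0.986). In edgeR 0 windows of the region passed at either temperature, as in the whole genome (0%). An unadjusted p under 0.05 stood in 7 at 34 °C and 1 at 25 °C, against 16 and 60 of all 4105. In DESeq2, too, 0 passed.

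In taz1 deletion the level was higher between 12 and 48 kb from the end. The 4 libraries read 3.03, 3.51, 3.84 and 3.52 times the median bin over the region, above all 8 wild type libraries, whose highest was 2.65. The change against the mean of wild type at 25 °C and 34 °C was 0.73 (SE 0.09, a fold of 1.66, adjusted p 8.54e-06 in edgeR, in which 1.96% of blocks were called). Among windows, 12 of 20 were higher and 0 lower, where 0.438% of all windows were called, 0.390% higher and 0.0487% lower. These 12 were the windows from 12 to 48 kb, and 12 of all 16 windows called higher lay in this region. Only windows covered by every library were tested, so this was the only chromosome end among them.

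**Figure D3:**
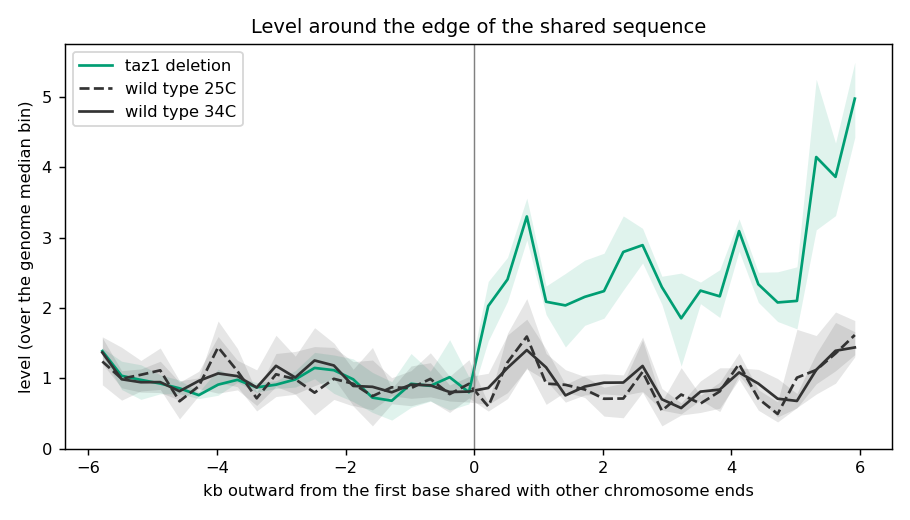
Level (over the genome median bin) of single 300 bp bins against distance in kb outward from the first base shared with other chromosome ends; lines are means of 4 libraries and bands run from the lowest to the highest. At the assembly bin that holds the edge and the next bin outward, taz1 deletion is at 0.803 and 2.03, and wild type at 34 °C at 0.813 and 0.864. The taz1 deletion bins lie inward of the assembly bins by part of a bin, so the edge falls in their higher bin.

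The largest change was at 36 to 39 kb, over the transmembrane protein gene ftm7 and the uncharacterized gene SPBPB2B2.18. There taz1 deletion read 3.14, 3.94, 3.78 and 4.28 and wild type read 0.776 to 1.54 over its 8 libraries, a change of 1.92 (SE 0.09, adjusted p 1.86e-13). At 39 to 42 kb, over the transporter gene SPBPB2B2.16C, it read 2.95, 3.21, 3.28 and 3.36, a change of 1.70 (SE 0.07, adjusted p 1.39e-14). The windows at 27 to 30, 33 to 36 and 42 to 45 kb changed by 1.67, 1.63 and 1.62. In none of the 12 windows did a taz1 deletion library overlap wild type. The same libraries gave the calls, and overlap was not counted over the genome, so this is description only.

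The rise began at or near the edge of the shared sequence. At the assembly bin that holds this edge taz1 deletion was at 0.803 ± 0.180 (SD, n = 4), and at the next bin outward at 2.03 ± 0.406. On the assembly that next bin is the first in which every 50-mer has a copy. The taz1 deletion bins lie inward of the assembly bins by part of a bin. As placed, the edge therefore falls in the higher of these taz1 deletion bins. Wild type at 34 °C read 0.813 ± 0.175 and 0.864 ± 0.185 at the same assembly bins. In the innermost 4 windows, with gal1, gal7 and gal10, the taz1 deletion change was -0.06 (adjusted p 0.990), and over the bins without exact copies it was 0.09 (adjusted p 0.999). The bins without copies include 3 at 0 to 3 kb, 8 at 3 to 6 kb and 3 at 6 to 9 kb. Levels there were high and weigh on that value, and at 3 to 6 kb they differed with the reference. Over gal1 the level was 0.989 ± 0.0677 in taz1 deletion and 1.06 ± 0.236 in wild type at 34 °C.

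The taz1 deletion bins cover this end alone among the chromosome ends, beginning 50000 bp into chromosomes I and II and ending at base 5529200 of the 5579133 of chromosome I, whereas the bins of the other libraries cover all those ends. The aligned copies on chromosomes I and II all lie outside those limits. A higher number of ends in the cells and reads from other ends being placed here cannot be told apart in the shared sequence. Where 1, 2 or 3 other ends hold an aligned copy, taz1 deletion stood at 4.84, 3.33 and 3.92 and wild type at 34 °C at 2.92, 1.32 and 1.22. In the 42 bins with no aligned copy that lie farther in than the outer 7.2 kb, they stood at 0.920 and 0.993.

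Polarity is the log2 ratio of ends assigned to forks moving toward the chromosome II right end over those assigned to forks moving away from it, after scaling each strand to its library total. The assignment was set from the sign of the switch at ars1, a well-studied origin (2.55 on the log2 scale), so ars1 does not check it. At the 1st and 99th percentiles of the genome the switch was -0.996 and 3.13, so the sharper switches had the sign of ars1. In wild type at 34 °C the inner zone began with forks moving outward, at 1.19 ± 0.217 (SD, n = 4) at 57 to 60 kb. Polarity turned to inward forks, at -0.995 ± 0.875, next to gal1 at 48 to 51 kb. Beyond a switch 48.6 kb from the end, 730 bp outward of gal1, the window means lay between -0.65 and 0.53 as far out as 18 kb. It was 1.10 at 15 to 18 kb and 1.79 at 9 to 12 kb, over tlh2.

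**Figure D4:**
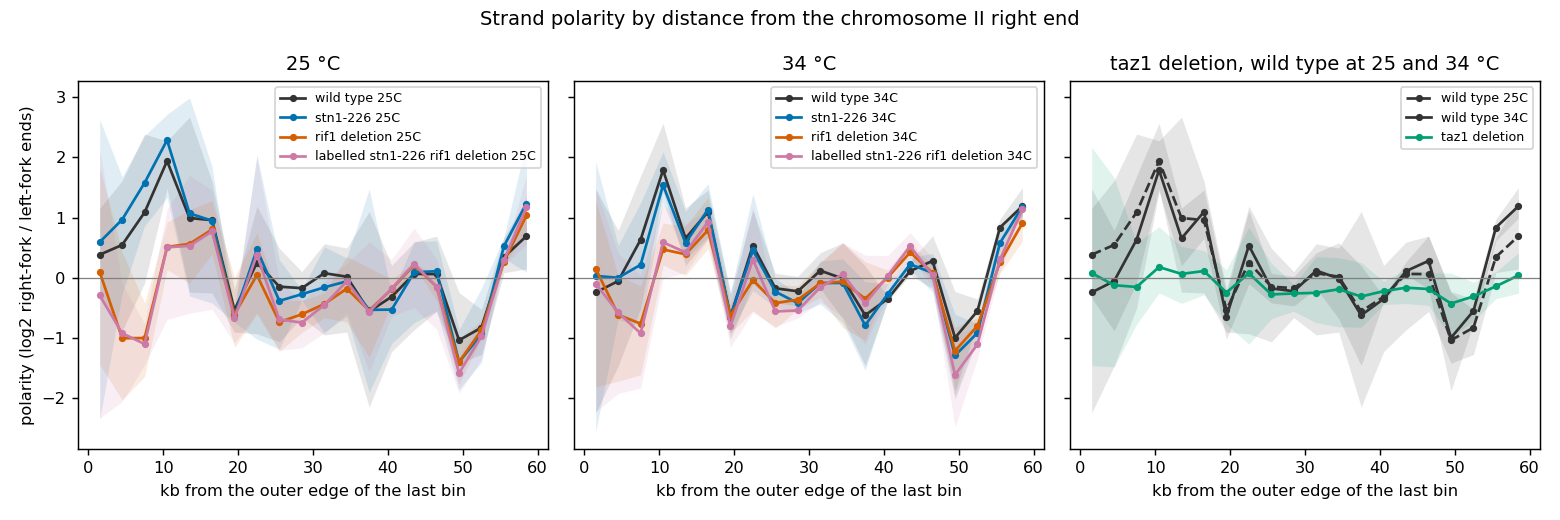
Polarity (log2 ratio of ends from forks moving toward the end over ends from forks moving away) in 20 windows of 3 kb against distance in kb from the outer edge of the last complete bin; lines are means of 4 libraries and bands run from the lowest to the highest. At 9 to 12 kb wild type, at 1.94 (25 °C) and 1.79 (34 °C), and stn1-226, at 2.29 and 1.54, lie above the rif1 deletion, labelled stn1-226 rif1 deletion and taz1 deletion lines, which lie between 0.178 and 0.589.

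The polymerases did not give the same direction in the outermost windows, nor in some windows farther in. At 36 to 39 kb, for example, wild type at 34 °C read 0.20 and -0.01 from Pol delta and -1.21 and -1.46 from Pol epsilon. In wild type at 34 °C the outermost window read 1.48 and 0.43 from Pol delta but -2.24 and -0.64 from Pol epsilon. At 6 to 9 kb it read 1.69 and 1.22 from Pol delta and -0.50 and 0.12 from Pol epsilon. The outer 9 kb is therefore described from each polymerase as well as from the mean of both. At 9 to 12 kb all 4 agreed in sign, at 2.57, 1.67, 1.43 and 1.49.

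The switch 18 kb from the end was the strongest of the region in wild type, at 1.64 on the log2 scale between the 3 kb on either side, higher than 92.8% of all bin boundaries of the genome. The switch 13.2 kb from the end, inside the pseudogene SPBCPT2R1.10, was at 1.57, and the switch beside gal1 was at 1.30. Weaker ones stood at 36 kb (0.76) and 24.3 kb (0.68). These are described by replicate, each the mean of 1 Pol delta and 1 Pol epsilon library.

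At 18 kb the switch had means of 1.41 to 1.80 in every condition other than taz1 deletion, and its lowest single value among them was 0.871, in replicate 2 of stn1-226 rif1 deletion at 25 °C as labelled. It read 1.62 and 1.90 in wild type at 34 °C, 1.60 and 1.22 in rif1 deletion at 34 °C, and 1.78 and 1.81 in stn1-226 at 34 °C. At 13.2 kb the conditions differed. There wild type read 1.93 and 1.35 at 25 °C and 1.60 and 1.35 at 34 °C, while rif1 deletion read 0.681 and 0.488 at 25 °C and 0.617 and 0.327 at 34 °C, without overlap. The libraries labelled stn1-226 rif1 deletion read 0.902 and 0.576 at 25 °C, below the 2.10 and 1.84 of stn1-226, and 0.897 and 0.576 at 34 °C, below its 1.48 and 0.977. These steps were chosen from the same data and carry no test.

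In rif1 deletion the polarity at 6 to 12 kb from the end was lower than in wild type, while the outermost window did not pass at either temperature. At 6 to 9 kb, the window that covers the outer part of tlh2, rif1 deletion at 25 °C read -0.42 and -0.59 from Pol delta and -1.64 and -1.35 from Pol epsilon. Wild type at 25 °C read 2.38, 1.66, -0.08 and 0.38 in the same order. All 4 rif1 deletion values lay below all 4 of wild type, within each polymerase as well. The change was -2.09 (SE 0.31, adjusted p 2.07e-05 in edgeR's test of direction). Of all windows 10.8% were called lower and 10.8% higher (21.6% in all), and of the 20 windows of the region 3 were called lower and 0 higher, a share near that of the genome.

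At 9 to 12 kb, within tlh2, rif1 deletion at 25 °C read 0.73, 0.93, 0.27 and 0.13, below the 1.77, 2.23, 2.27 and 1.48 of wild type. The change was -1.43 (SE 0.36, adjusted p 0.00492). The remaining window called was at 27 to 30 kb (-0.43, SE 0.15, adjusted p 0.0350). For the block the change was -0.59 (SE 0.16, adjusted p 0.00537, with 35.3% of blocks called), -0.54 without both replicate 2 libraries of wild type at 25 °C, and -0.02 in the innermost 4 windows alone. No library of rif1 deletion at 25 °C shares its dependence of ends on base content with a wild type library at 25 °C, so that effect and genotype cannot be told apart in this comparison.

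At 34 °C, where such libraries exist on both sides, 3 windows of the region were called, all lower. At 6 to 9 kb rif1 deletion read -0.13, -0.73, -1.61 and -0.57 and wild type 1.69, 1.22, -0.50 and 0.12, a change of -1.39 (SE 0.31, adjusted p 0.00205). The sets overlapped, while within each polymerase every rif1 deletion library lay below both of wild type. The difference was -1.47 within replicate 1 and -1.32 within replicate 2. At 9 to 12 kb it read 0.91, 0.49, 0.28 and 0.21 against 2.57, 1.67, 1.43 and 1.49 without overlap, a change of -1.32 (SE 0.36, adjusted p 0.0107). The remaining one was at 54 to 57 kb, with parts of tgd1, gal10 and gal7 (-0.58, SE 0.16, adjusted p 0.0126). Of all windows 17.3% were called, 8.26% higher and 9.06% lower. The block did not pass (-0.23, SE 0.16, adjusted p 0.337, with 29.9% of blocks called), whereas it did without the outermost 3 windows (-0.34, adjusted p 0.00114).

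**Figure D5:**
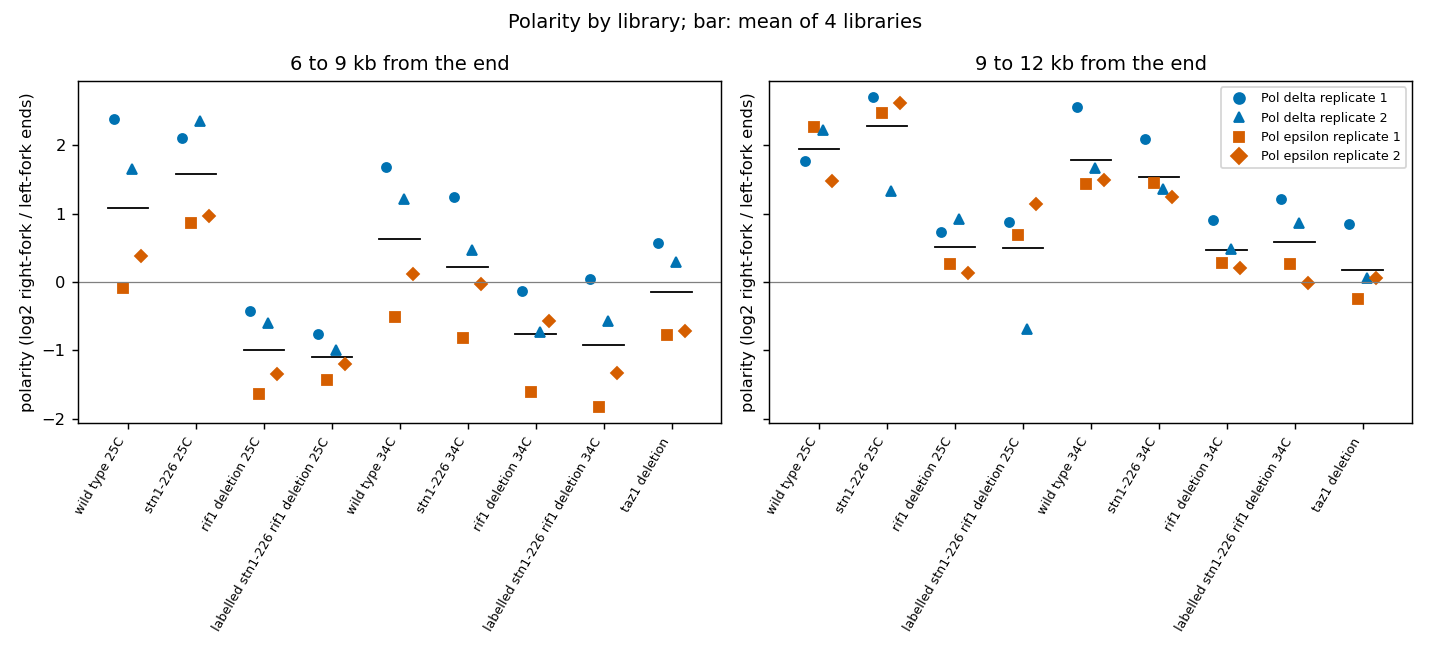
Polarity (log2 ratio of ends from forks moving toward the end over ends from forks moving away) of each library at 6 to 9 kb and at 9 to 12 kb from the end, by condition; points are libraries, coloured by polymerase, and bars are means of 4. At 9 to 12 kb rif1 deletion at 34 °C lies between 0.21 and 0.91 and wild type at 34 °C between 1.43 and 2.57.

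At 25 °C the libraries labelled stn1-226 rif1 deletion differed from stn1-226 in 4 windows, all lower. At 6 to 9 kb they read -0.76, -0.99, -1.44 and -1.20 against 2.11, 2.36, 0.86 and 0.97, a change of -2.67 (SE 0.31, adjusted p 7.34e-07). The window at 9 to 12 kb changed by -1.78 (SE 0.36, adjusted p 0.000792). Those at 3 to 6 kb and 27 to 30 kb changed by -1.89 (adjusted p 0.0442) and -0.47 (adjusted p 0.0220). Of all windows 22.1% were called, 11.1% lower, and the block changed by -0.76 (SE 0.16, adjusted p 0.000645, with 36.3% of blocks called).

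At 34 °C 1 window passed, at 6 to 9 kb. There the libraries labelled stn1-226 rif1 deletion read 0.05, -0.58, -1.83 and -1.32 and stn1-226 read 1.24, 0.46, -0.81 and -0.03. The sets overlapped, while within each polymerase every labelled library lay below both of stn1-226. The change was -1.14 (SE 0.31, adjusted p 0.0104, with 18.1% of windows called, 8.77% higher and 9.28% lower). The block did not pass (-0.30, SE 0.16, adjusted p 0.177, with 27.0% of blocks called).

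In taz1 deletion the mean polarity lay between -0.43 and 0.18 in all 20 windows. This went with a weak polarity over the genome: the SD over all windows was 0.272 to 0.572 in the 4 taz1 deletion libraries and 1.08 to 1.78 in the 8 of wild type. At 9 to 12 kb taz1 deletion read 0.85, 0.06, -0.25 and 0.06, below all 8 wild type libraries, whose lowest was 1.43. The change was -1.69 (SE 0.31, adjusted p 8.19e-05). Of the 20 windows 2 were higher and 6 lower, while 61.8% of all windows were called, 31.4% higher and 30.4% lower.

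The windows with the next largest changes were at 6 to 9 kb (-1.01), 15 to 18 kb (-0.91), 57 to 60 kb (-0.90), 12 to 15 kb (-0.76) and 54 to 57 kb (-0.73). Those at 48 to 51 kb and 51 to 54 kb, where wild type forks moved inward past gal1, changed by 0.59 and 0.38. The block changed by -0.40 (SE 0.14, adjusted p 0.0182, with 56.9% of blocks called). The 3 switches shown above read 0.261 and 0.341 at 48.6 kb, 0.445 and 0.257 at 18 kb and 0.229 and 0.146 at 13.2 kb in taz1 deletion, each below every value of wild type.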

How the data were processed

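The deposited files hold counts of fragment ends per 300 bp bin, 1 file per strand and library, 72 in all; whole numbers with unequal totals show that the authors had not scaled them. Per the submitters' processing notes reads were aligned with Bowtie2. The sources used here do not give its version, its settings or a build. Chromosome lengths differed between files, so bins were placed on ASM294v3 (NCBI RefSeq) and the placement was checked by regressing ends on base content. This used a stretch of chromosome II that reached farther in than the region and left out its outermost bins. Base content explained 5.17 to 57.7% of the variance with these bins at the placement used or the next bin to either side. With the same bins placed farther off it explained at most 10.8%, and less in each library. This check does not fix the placement to a single bin. Placement in the outer 9 kb was not checked in this way. taz1 deletion bins start 50000 bp into the chromosome, which is not a whole number of bins. Each was set to the assembly bin that holds its midpoint.

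Windows of 10 bins and blocks of 200 bins were tested with edgeR 4.0.16 (R 4.3.3), quasi-likelihood F-test, TMM factors, a mean of at least 10 ends, all 36 libraries in 1 fit, and the mean of both polymerases' differences as contrast. Direction was tested on both strands' counts with the library as a block and strand totals as library sizes. P-values were adjusted by Benjamini-Hochberg over all windows or blocks covered by every library, with a threshold of 0.05. DESeq2 1.42.0 was an alternative. Copies were exact 50-mers and blastn 2.17.0 alignments (85% identity, over 1500 bases). Both fits were tested on simulated counts. Replicates differed by more than sampling noise in every group.

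Windows were named by rule: the outermost, the highest and lowest in wild type, and up to 5 called per comparison by size of change; genes were those overlapping them, plus gal1, gal7, gal10 and tlh2. The region, the lists and the tests were chosen with earlier results of these data known.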

Additional observations from a re-analysis of the deposited data

Results flagged for a closer look

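At 27 to 30 kb from the end, the level of rif1 deletion at 34 °C from Pol epsilon replicate 2 was 0.774 times the median bin, apart from the other 3 libraries of that condition, which lay between 0.934 and 0.965. It was the 1 sample that stood apart among 180 sets of 4 libraries examined, and chance sets apart about 1 in 20.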

How the results depend on the processing

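Of 608 alternative values for 32 results, 533 kept their direction and side of the threshold (for counts, stayed within 1.5 times); the cause of the other changes was not tested. Settings chosen after seeing the data were the class block (3 classes of libraries by base-content dependence), leaving out the outermost 3 windows and using only the innermost 4. Called windows for the level of stn1-226 at 34 °C were 6 with DESeq2, 2 with only the compared libraries, 2 with the replicate block, 2 with windows of 20 bins and 4 with the class block, and those of taz1 deletion 6 with windows of 20 bins, against 12. From Pol delta alone 1 window was called for the labelled stn1-226 rif1 deletion at 25 °C. Block levels of stn1-226 at 34 °C lost the threshold from Pol delta alone (-0.41), in bins without exact copies (-0.70) and in the innermost 4 windows (-0.0917). At 25 °C stn1-226 passed with the replicate block (-0.35, adjusted p 0.0250), which there pairs libraries of unlike base-content class. The rif1 deletion level at 25 °C turned to -0.36 from Pol epsilon alone and -0.0685 in bins without copies, and at 34 °C to 0.0571 from Pol delta alone. For the labelled stn1-226 rif1 deletion at 25 °C it was 0.58 from Pol delta, which passed, and -0.37 from Pol epsilon; at 34 °C it passed with DESeq2 (0.43) and the replicate block (0.44). The taz1 deletion level was 0.0857 in bins without copies and -0.0615 in the innermost 4 windows. For direction, called windows were, in rif1 deletion at 25 °C, 1 from Pol delta and 1 with 20 bins; at 34 °C 1 from Pol delta and 0 from Pol epsilon. For the labelled stn1-226 rif1 deletion they were at 25 °C 2 with only the compared libraries, 2 from each polymerase alone and 1 with 20 bins, and at 34 °C 2 with DESeq2, 4 with the compared libraries, 2 with the replicate block and 0 from each polymerase. In taz1 deletion they were 4 from Pol delta, 5 from Pol epsilon and 4 with 20 bins. The block direction of stn1-226 at 34 °C turned to -0.19 from Pol delta, -0.21 without the outermost 3 windows and -0.22 in the innermost 4, and at 25 °C to -0.0552 from Pol delta. In rif1 deletion at 25 °C it fell short from Pol delta (-0.49), in bins without copies (-0.70) and in the innermost 4 windows (-0.0223); at 34 °C it was 0.0217 from Pol epsilon and passed without the outermost 3 windows (-0.34) and in the innermost 4 (-0.33). In the labelled stn1-226 rif1 deletion it fell short at 25 °C in the innermost 4 windows (-0.0750) and passed at 34 °C with only the compared libraries (-0.30). In taz1 deletion it fell short from Pol epsilon (-0.18), in bins without copies (-0.18) and in the innermost 4 windows (-0.15). Leaving out each library in turn gave block levels of -0.0868 to 0.20 for rif1 deletion and -0.49 to -0.20 for stn1-226 at 25 °C (passing, adjusted p 0.0124, without wild type Pol delta replicate 1), and 0 to 1 called windows in rif1 deletion at 25 °C, where 1 was called without its Pol epsilon replicate 1. For direction it gave -0.0104 to 0.28 for stn1-226 at 25 °C, -0.0637 to 0.11 at 34 °C, -0.26 to 0.0313 for their difference, -0.47 to -0.32 for taz1 deletion (not passing without its Pol epsilon replicate 1 or Pol delta replicate 2), and 2 to 4 and 0 to 1 called windows for the labelled stn1-226 rif1 deletion at 25 °C and 34 °C. For the labelled stn1-226 rif1 deletion the lower counts came without stn1-226 Pol delta replicate 1 or Pol epsilon replicate 2, or without the labelled Pol epsilon replicate 1, at both temperatures, and also without the labelled Pol epsilon replicate 2 at 25 °C or Pol delta replicate 2 at 34 °C. Without both replicate 2 libraries of wild type at 25 °C no call changed, while the rif1 deletion level moved to 0.30, that of stn1-226 to -0.11 and the stn1-226 difference between temperatures to -0.57. Replicate numbers are not stated to mark a shared batch; deviations of same-numbered libraries correlated at -0.757 to 0.855 over 12 pairs of libraries, above 0.1 in 10. Other calls were the same with the replicate block. The smallest window of any library held 337 ends.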

Other observations

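In the 16 replicate 1 libraries whose chromosome II runs 19 bins beyond the assembly, those bins lie outside the region described here. Their level over the median bin in wild type at 34 °C was 15.4 from Pol delta and 9.60 from Pol epsilon. In stn1-226 at 34 °C it was 8.94 and 1.65. Those labelled stn1-226 rif1 deletion read 16.7 and 6.55 at that temperature, and those of rif1 deletion 13.5 and 6.13. At 25 °C wild type read 3.98 from Pol delta and 15.9 from Pol epsilon, and stn1-226 read 5.78 and 8.57. There stn1-226 was the higher from Pol delta and the lower from Pol epsilon. Those labelled stn1-226 rif1 deletion read 8.56 and 5.89 at 25 °C, and those of rif1 deletion 9.45 and 5.88. Each is 1 library, so no test was made.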
